A study of Homo sapiens with 4 samples.

Results

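The urea cycle and the enzymes that break down amino acids were followed in the liver cancer line Huh-7 (human hepatocellular carcinoma), with and without transforming growth factor beta (TGF-beta), whose receptors act on SMAD transcription factors. The set was a list of 41 genes chosen by name, with earlier results of these data known. Of these, 39 had a probe set that named a single gene, among 12165 genes measured in all. GLS2 and SDS were not analysed here. Each gene was read from its brightest probe set, and the 39 genes had 69 probe sets in total. There were 2 arrays of untreated Huh-7 cells and 2 arrays of Huh-7 cells treated with TGF-beta. The time is 48 h for all 4 arrays, and no other agent or genotype is named. No dose is stated in the labels used here. All 4 arrays come from 1 cell line, and the labels do not say that the 2 arrays of a group were separate cultures. Each p-value therefore rests on the spread between these arrays, which may be technical. That spread is pooled in part over all genes, so a standard error (SE) is not the spread of a single gene's arrays alone.

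The urea cycle turns the ammonia released from amino acids into urea, and in the body it runs almost entirely in hepatocytes, where CPS1 and OTC carry out the mitochondrial steps and ASS1, ASL and ARG1 the cytosolic ones. Transaminases move amino groups between amino acids, and the remaining carbon skeletons enter dedicated degradation routes, many of them mitochondrial, which end in the citric acid cycle. The methionine cycle makes S-adenosylmethionine, the methyl donor of the cell, and its liver-type synthetase MAT1A is often replaced by MAT2A in dividing hepatocytes and liver cancer.

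None of the 39 enzymes was called after TGF-beta, where a call is an adjusted p under 0.05 in limma's fit over all 12165 genes, with Benjamini-Hochberg adjustment. In that fit 149 genes, or 1.22% of those tested, were called (0.658% higher and 0.567% lower). The enzymes nearest to a call were MAT2A, which stood higher after TGF-beta, and OAT, PCCA, PCCB and MMUT, which stood lower. Their differences were between 1.32-fold and 1.43-fold, and their adjusted p lay between 0.0731 and 0.105. At an unadjusted p under 0.05 there were 9 of 39 enzymes (23.1%), 4 higher and 5 lower, beside 18.0% of all genes (9.35% higher and 8.60% lower). The groups' arrays did not overlap for 19 of the 39 (48.7%), beside 49.1% of all genes. Both shares were therefore near the background. In bulk RNA, fewer cells that express a gene and less RNA per cell cannot be told apart. The median log2 fold change of the 39 was -0.06, with 18 positive and 21 negative values, and that of all genes was -0.01.

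**Figure D1:**
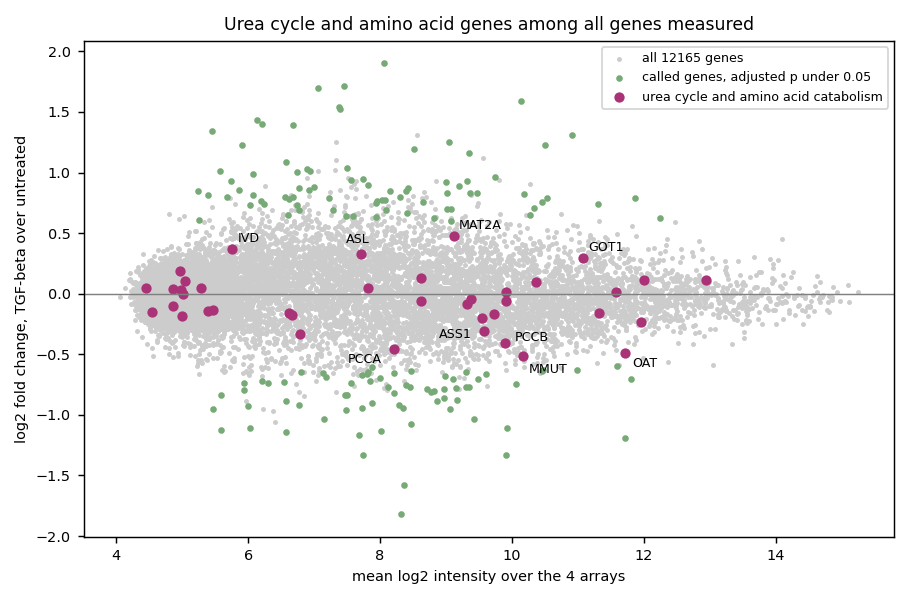
Log2 fold change after TGF-beta (vertical) against the mean log2 intensity over the 4 arrays (horizontal) for each gene. Grey points are all 12165 genes, green points the 149 called genes and purple points the 39 urea cycle and amino acid enzymes, of which the 9 with an unadjusted p under 0.05 are labelled. The purple points lie between -0.52 and 0.48, and none of them is a called gene.

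Brightness divided the enzymes. The mean log2 intensity of 26 of the 39 lay above the median over all genes, which was 6.20, and that of 13 lay below it. These dimmer enzymes were CPS1, OTC, TAT, HPD, GPT, AGXT, MAT1A, GNMT, BHMT, AASS, PRODH, HAL and IVD, at 4.45 to 5.76. The brighter ones began at 6.62, so a gap around the median separated the dim from the bright enzymes. The brightness of a probe set depends on its probes as well as on the transcript, so these values do not rank the enzymes, and a dim probe set has little room to fall. Among the 26 brighter enzymes, 8 had an unadjusted p under 0.05 (30.8%), beside 28.2% of all genes of that brightness. The arrays of the groups did not overlap for 16 of them (61.5%), beside 60.3%.

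The cell line's label was checked against marker genes. All 13 measured hepatocyte markers of 15 listed were above the upper quartile of brightness, with summed intensities of 105000 and 107000 in untreated arrays and 112000 and 111000 after TGF-beta. Of these 13, limma called 1 higher, the apolipoprotein APOA1 (0.74 ± 0.11, SE, n = 2 per group; adjusted p = 0.0378), and 1 lower, the thyroxine carrier TTR (-0.63 ± 0.11; adjusted p = 0.0470). The protease inhibitor SERPINA1 stood at 0.60 ± 0.11 (adjusted p = 0.0555), and ALB and AFP at 0.07 ± 0.10 and 0.06 ± 0.10. The probe set of ALB had a mean log2 intensity of 15.09, close to the brightest gene at 15.23. Dimmer probe sets of ALB gave -0.34 ± 0.15 and 0.43 ± 0.15, so no direction is given for ALB. Of other cell types' markers, 7 of 8 for fibroblasts (all except LUM), 4 of 6 measured for leukocytes (all except CD3D and CD14) and 6 of 6 for endothelium were below the median brightness. Summed intensities were 6980 to 7510 in untreated and 7040 to 7550 in treated arrays for the fibroblast list, of which LUM made up most. They were 391 to 468 and 409 to 439 for leukocytes, and 196 to 201 and 193 to 196 for endothelium. CD14 was called higher (adjusted p = 0.0167, limma), and its relation to the enzymes' values was not tested. SMAD7, SKIL and PMEPA1, textbook feedback targets of TGF-beta, had log2 fold changes of -0.03, 0.06 and -0.23, and none was called. Where an array was left out, its group had 1 array, which was assumed to vary like the pair of the other group. The count of 149 calls then became 0 without either of the TGF-beta arrays, 345 without untreated array 1 and 523 without untreated array 2.

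In the urea cycle itself, 0 of 6 enzymes were called by limma (ASL and ASS1 had an unadjusted p under 0.05). CPS1, which makes carbamoyl phosphate from ammonia, and OTC, which joins it to ornithine, were both dim. CPS1 had log2 intensities of 5.04 and 4.99 in untreated arrays and 4.95 and 5.07 after TGF-beta, and OTC 5.22 and 5.30 against 5.39 and 5.22. The groups overlapped for both genes, and their log2 fold changes were 0.0004 ± 0.11 and 0.05 ± 0.11 (SE). The other probe set of CPS1 was also dim, with a mean log2 intensity of 4.62.

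The enzymes of the next steps were brighter and had values of opposite sign. ASS1, which forms argininosuccinate from citrulline and aspartate, had log2 intensities of 9.81 and 9.63 untreated and 9.41 and 9.42 after TGF-beta. Both treated arrays of ASS1 were below both untreated ones, and its log2 fold change was -0.30 ± 0.11 (SE), with a 95% interval from -0.57 to -0.04 and an adjusted p of 0.222. ASL, which splits argininosuccinate into arginine and fumarate, was at 7.65 and 7.44 untreated and at 7.85 and 7.90 after TGF-beta. Both treated arrays of ASL were above both untreated ones, with a log2 fold change of 0.33 ± 0.12 and an adjusted p of 0.203. Neither difference passed the test over all genes.

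The arginases release urea and ornithine from arginine, ARG1 in the cytosol and ARG2 in mitochondria. ARG1 was at 6.74 and 6.76 in untreated arrays and at 6.62 and 6.54 after TGF-beta, a log2 fold change of -0.17 ± 0.10 (adjusted p = 0.448, limma). ARG2 was at 9.73 and 9.55 against 9.37 and 9.51, with a log2 fold change of -0.20 ± 0.12 and an adjusted p of 0.432. In both arginases the treated arrays lay below the untreated ones, by about as much as the untreated arrays of ARG2 differed from each other. The dimmer probe set of ARG2 gave -0.03. Of the mitochondrial carriers that serve the cycle, SLC25A15 (ornithine and citrulline) had a log2 fold change of 0.24 and SLC25A13 (aspartate and glutamate) of -0.17, with adjusted p of 0.610 and 0.540.

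OAT is the mitochondrial enzyme that converts ornithine to glutamate semialdehyde and so links the urea cycle to glutamate and proline. It was bright, at log2 intensities of 11.98 and 11.92 in untreated arrays and 11.40 and 11.54 after TGF-beta. Both treated arrays were below both untreated ones, by more than either pair of arrays differed. Its log2 fold change was -0.49 ± 0.11 (SE, n = 2 per group; 95% interval from -0.74 to -0.23), which is 1.40-fold lower, with an adjusted p of 0.0762 in limma. The 3 other enzymes of lysine, proline and histidine breakdown were dim and overlapped between groups. AASS, the first enzyme of lysine degradation, stood at -0.14, PRODH, which oxidises proline, at 0.03, and HAL, which deaminates histidine, at -0.14, with an untreated range for HAL of 0.59 on the log2 scale. The second probe set of AASS, also dim, gave -0.41 ± 0.12 (SE) with an unadjusted p of 0.00829 and an adjusted p of 0.132 in limma's fit over all probe sets.

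In the methionine cycle, MAT2A had the smallest p of all 39 enzymes. MAT2A is the S-adenosylmethionine synthetase of most tissues outside the adult liver. Its log2 intensities were 8.91 and 8.84 in untreated arrays and 9.33 and 9.38 after TGF-beta, so both treated arrays were above both untreated ones. The log2 fold change of MAT2A was 0.48 ± 0.11 (SE; 95% interval from 0.23 to 0.72), or 1.39-fold higher, with an unadjusted p of 0.00231 and an adjusted p of 0.0731 in limma. Its other probe sets gave 0.11 ± 0.17 at a mean log2 intensity of 6.99 and 0.47 ± 0.15 at 5.99. MAT1A, the synthetase of the mature hepatocyte, was dim, at 5.13 and 5.05 against 4.82 and 4.99, with a log2 fold change of -0.19 ± 0.11 and an adjusted p of 0.451. The signs of MAT1A and MAT2A were opposite, and the difference between them was not tested.

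The other enzymes of the cycle showed small differences. AHCY, which splits S-adenosylhomocysteine, was bright, at 11.96 and 11.92 in untreated arrays and at 12.12 and 11.99 after TGF-beta, and its log2 fold change was 0.11 ± 0.11 (adjusted p = 0.662, limma). GNMT, a liver methyltransferase that consumes S-adenosylmethionine on glycine, and BHMT, which remethylates homocysteine with betaine, were among the dim enzymes, at 0.04 and 0.10. CTH and CBS, which carry homocysteine on to cysteine, are outside the 39 and are described with the wider pathway.

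The propionate pathway takes the propionyl-CoA left from isoleucine, valine, methionine and threonine to succinyl-CoA. PCCA and PCCB encode the alpha and beta subunits of propionyl-CoA carboxylase, and MMUT the cobalamin-dependent mutase that follows. The values of all 3 stood lower after TGF-beta, none was called, and all 3 had an unadjusted p under 0.05, beside 8.60% of all genes lower at that threshold. All 3 lay above the median brightness, where 821 of 6082 genes were lower at that threshold. PCCA was at log2 intensities of 8.44 and 8.45 untreated and at 7.96 and 8.02 after TGF-beta. PCCB was at 10.14 and 10.06 against 9.71 and 9.68, and MMUT at 10.59 and 10.26 against 9.90 and 9.92. In each of the 3 genes both treated arrays lay below both untreated ones, and the untreated arrays of MMUT were further apart than those of the carboxylase subunits.

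The log2 fold changes were -0.45 ± 0.10 for PCCA (SE; 1.37-fold lower; adjusted p = 0.0778), -0.40 ± 0.11 for PCCB (1.32-fold lower; adjusted p = 0.104) and -0.52 ± 0.14 for MMUT (1.43-fold lower; adjusted p = 0.105), from limma. Their 95% intervals ran from -0.70 to -0.21, from -0.65 to -0.16 and from -0.83 to -0.20, and so overlapped widely. MMUT has a dimmer probe set at a mean log2 intensity of 7.68 with a similar value, -0.58 ± 0.11 (adjusted p = 0.0637 in the fit over all probe sets). The other probe set of PCCA was near the bottom of the range, at a mean of 4.45, and gave 0.002. Without untreated array 2, where the spread comes from the TGF-beta pair alone, the value of MMUT was -0.68 and its adjusted p 0.0256 in limma. In that fit MMUT and BCKDHB were past the threshold, beside 4.30% of all genes. Without untreated array 1, MMUT stood at -0.35, and none of the 39 enzymes was called, beside 2.84% of all genes.

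The call also depended on how limma estimated the variance. With a variance prior that follows intensity, 4 of the 39 enzymes were called (10.3%), beside 5.06% of all genes. MAT2A was then called higher (adjusted p = 0.0424), and OAT (adjusted p = 0.00458), MMUT (adjusted p = 0.0266) and PCCB (adjusted p = 0.0494) lower. PCCA was not called in that fit (adjusted p = 0.0883). With the array number as a block, MAT2A, OAT, PCCA, PCCB and MMUT were called, beside 10.1% of all genes, although the numbers do not show a pairing of the samples. Every enzyme called in these fits lay above the median brightness, as did 26 of the 39. The shares of 5.06% and 10.1% cover genes of every brightness, so they are not a matched background. None of the 39 was called after quantile normalization, after centring of the arrays on their medians, with the mean of all probe sets, or among brighter genes only.

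**Figure D2:**
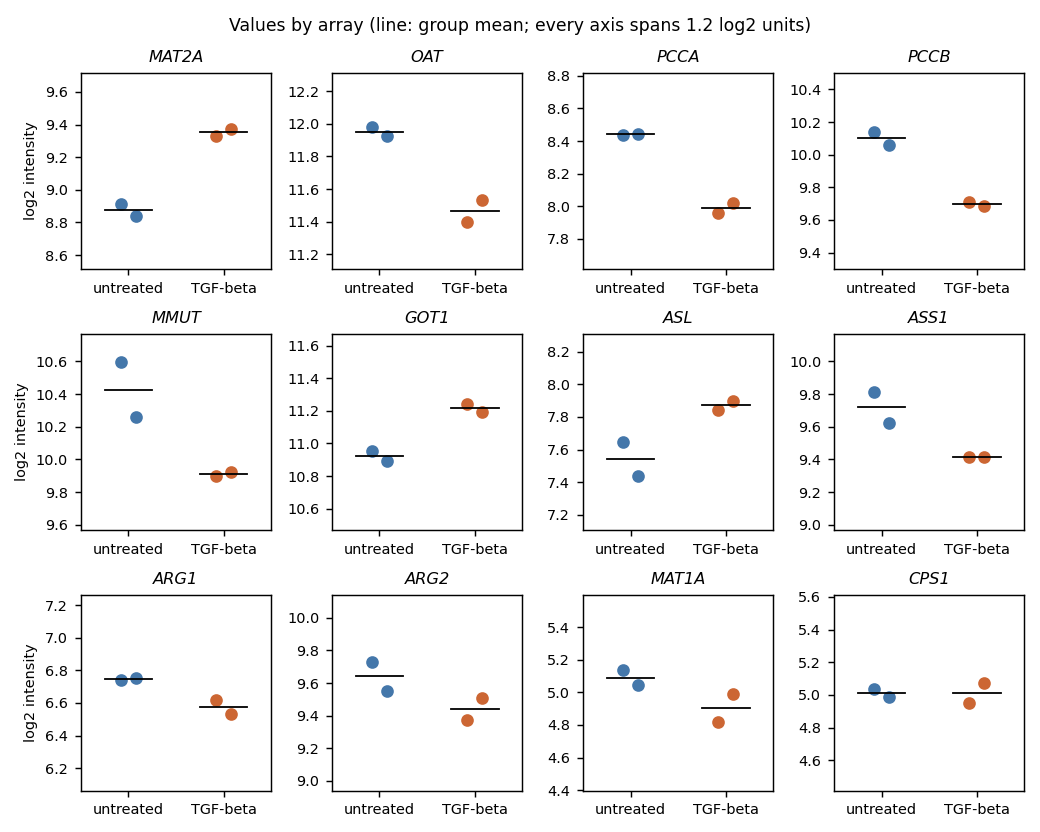
Log2 intensity (vertical) on each of the 2 untreated arrays (blue) and 2 TGF-beta arrays (orange) for 12 enzymes, with a line at each group mean and axes of equal span. The arrays of the groups do not overlap in 11 of the panels, with MAT2A, GOT1 and ASL higher after TGF-beta, and they overlap for CPS1, whose 4 values lie between 4.95 and 5.07.

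Branched-chain amino acids are transaminated, oxidised by the branched-chain ketoacid dehydrogenase and then degraded by separate mitochondrial routes, of which those of valine and isoleucine feed the propionate pathway. Of the 7 enzymes from these steps, 0 were called by limma (1 of them, with a higher value, had an unadjusted p under 0.05), and their median was -0.06. IVD, which oxidises isovaleryl-CoA from leucine, was that 1 enzyme, at log2 intensities of 5.46 and 5.69 against 5.76 and 6.13. Its log2 fold change was 0.37 ± 0.15 with an adjusted p of 0.261. IVD has 7 probe sets, all dim, and the other 6 gave values from -0.10 to 0.30.

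None of the subunits of the ketoacid dehydrogenase was called. BCKDHA stood at 0.04 ± 0.17, BCKDHB at -0.33 ± 0.19 and DBT, the transacylase, at -0.06 ± 0.13 (SE). In limma's fit over all probe sets, a dimmer probe set of DBT gave -0.41 ± 0.13 (unadjusted p = 0.0135, adjusted p = 0.168). The remaining probe sets of DBT gave -0.17 and -0.09. BCKDHB was at 7.24 and 6.66 in untreated arrays, so its untreated values differed by more than its fold change, and without untreated array 2 its value became -0.62 (adjusted p = 0.0451), and without untreated array 1 it became -0.04. BCAT2, the mitochondrial transaminase, stood at -0.08 and HIBCH, an enzyme of valine degradation, at -0.16. MCCC2, a subunit of the leucine enzyme methylcrotonyl-CoA carboxylase, was at 8.45 and 8.65 against 8.73 and 8.62, a log2 fold change of 0.13 ± 0.12, and its dimmer probe set gave -0.38 ± 0.13 (unadjusted p = 0.0172 in limma).

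Other genes of branched-chain and propionate metabolism were read from a list of 15, of which 12 were measured. None was called by limma, and 5 were lower and 0 higher at an unadjusted p under 0.05, beside 8.60% and 9.35% of all genes. Of the 12, 9 lay above the median brightness, where 821 of 6082 genes were lower and 897 higher at that threshold. The list's median was -0.21, beside -0.01 for all genes. The 5 were chosen for naming after their values were seen. ACADSB, which oxidises the isoleucine intermediate, stood at -0.65 ± 0.17 (adjusted p = 0.104), and ALDH6A1, a valine enzyme that makes propionyl-CoA, at -0.62 ± 0.14 (adjusted p = 0.0740). BCAT1, the cytosolic transaminase, stood at -0.60 ± 0.13, AUH, a leucine hydratase, at -0.43 ± 0.10 and DLD, the shared E3 subunit of the ketoacid dehydrogenases, at -0.32 ± 0.11. In the fit over all probe sets, dimmer probe sets of ALDH6A1 (-0.94 ± 0.12, adjusted p = 0.0291) and BCAT1 (-0.97 ± 0.13, adjusted p = 0.0360) were called lower, while the 3 remaining probe sets of ALDH6A1, all below the median brightness, gave -0.24, 0.16 and -0.08. BCKDK, the kinase that inhibits the branched-chain dehydrogenase, had a log2 fold change of 0.43 ± 0.22 (adjusted p = 0.359), with untreated arrays at 6.26 and 5.61.

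**Figure D3:**
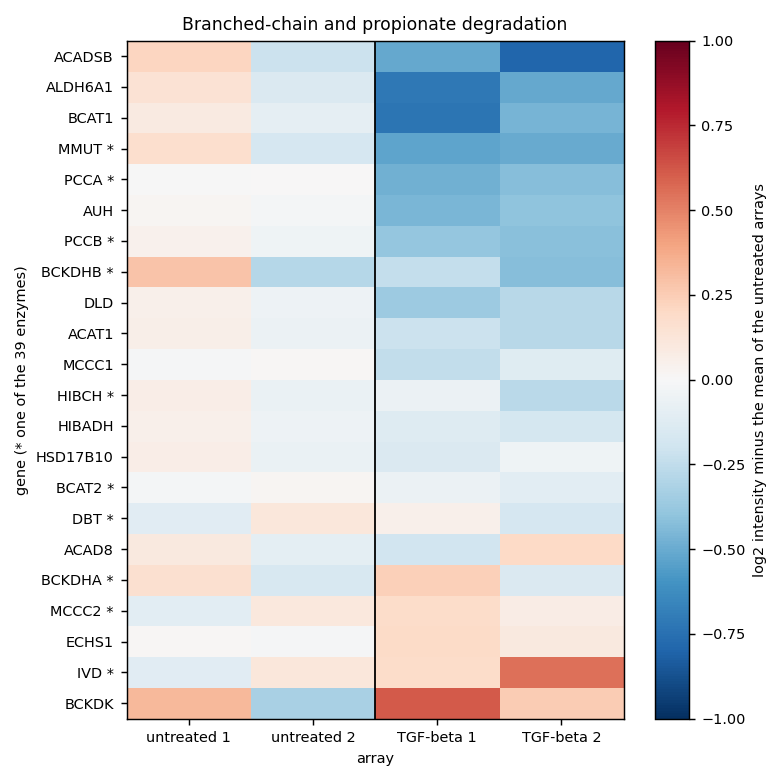
Log2 intensity minus the mean of the untreated arrays (colour, blue lower and red higher) for each gene of branched-chain and propionate degradation (rows, ordered by fold change, with an asterisk on the enzymes of the 39) on each array (columns). PCCA, PCCB and MMUT are blue on both TGF-beta arrays. MMUT, ACADSB, BCKDHA, BCKDHB and BCKDK also differ between the 2 untreated arrays, by 0.33 to 0.66 on the log2 scale.

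Promoter sequences are shown for the 5 enzymes with the smallest p, because these are the ones that came nearest to a call. RefSeq (GRCh38.p14) gave a promoter for 33 of the 39 enzymes. Each line holds the 250 bases before the start of the gene, read 5′ to 3′ on its own strand, at chr2:85538918-85539167 (plus strand) for MAT2A, chr10:124418924-124419173 (minus strand) for OAT, chr13:100088843-100089092 (plus strand) for PCCA, chr3:136250090-136250339 (plus strand) for PCCB and chr6:49463254-49463503 (minus strand) for MMUT. Capitals mark matches, on either strand, to GGGCGG (the GC box), CCAAT (the CCAAT box), CAGAC (the SMAD box), CACGTG (an E-box) and TGATGCAAT (an amino acid response element).
MAT2A: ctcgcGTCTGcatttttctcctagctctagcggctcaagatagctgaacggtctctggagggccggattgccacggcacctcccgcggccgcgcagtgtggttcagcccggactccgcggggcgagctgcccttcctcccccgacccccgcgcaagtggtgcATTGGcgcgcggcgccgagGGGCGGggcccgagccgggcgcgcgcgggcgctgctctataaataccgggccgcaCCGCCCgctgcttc
OAT: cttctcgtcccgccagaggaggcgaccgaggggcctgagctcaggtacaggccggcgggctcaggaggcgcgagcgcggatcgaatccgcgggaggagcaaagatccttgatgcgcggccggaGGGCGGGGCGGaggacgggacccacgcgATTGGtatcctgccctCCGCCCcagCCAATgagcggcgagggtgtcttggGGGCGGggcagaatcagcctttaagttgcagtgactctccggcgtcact
PCCA: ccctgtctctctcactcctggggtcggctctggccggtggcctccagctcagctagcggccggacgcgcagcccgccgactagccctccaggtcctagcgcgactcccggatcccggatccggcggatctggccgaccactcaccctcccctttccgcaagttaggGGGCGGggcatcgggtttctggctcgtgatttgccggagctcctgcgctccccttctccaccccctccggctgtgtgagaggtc
PCCB: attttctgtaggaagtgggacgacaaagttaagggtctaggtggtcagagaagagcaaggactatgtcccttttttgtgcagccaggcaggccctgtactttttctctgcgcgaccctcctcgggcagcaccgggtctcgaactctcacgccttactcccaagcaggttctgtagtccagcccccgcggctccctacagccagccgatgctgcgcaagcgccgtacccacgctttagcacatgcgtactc
MMUT: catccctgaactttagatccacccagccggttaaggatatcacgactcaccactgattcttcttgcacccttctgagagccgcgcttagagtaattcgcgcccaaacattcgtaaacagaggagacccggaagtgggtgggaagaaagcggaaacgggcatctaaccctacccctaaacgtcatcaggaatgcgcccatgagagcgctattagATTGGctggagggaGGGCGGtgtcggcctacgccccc

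A GC box lay in 4 of these 5 promoters, all except PCCB, and OAT held 4 matches, of which 1 pair overlaps by a base. MAT2A held 2 GC boxes, 1 CCAAT box and 1 SMAD box, OAT 2 CCAAT boxes, and MMUT 1 CCAAT box. None of the searched letters occurs in the PCCB window, and no E-box or amino acid response element occurs in any of the 5. Over the 33 enzymes with a sequence (1 window per gene), the GC box was in 69.7%, the CCAAT box in 57.6% and the SMAD box in 21.2%. Over all 35116 RefSeq promoters the shares were 42.6%, 32.0% and 38.0%. Those 35116 were not limited to the measured genes or to 1 window per gene, so they are not a matched background. No difference between the shares was tested. The rarer E-box was in 6.06% of the enzymes and 6.34% of all promoters, and the amino acid response element was in 0 of the 33 and in 0.216% of all promoters. The 5 windows were 55.2% to 71.6% G and C, beside a median of 58.0% over all promoters, and a match is a description of these letters only.

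Tyrosine is broken down by TAT, HPD, HGD and FAH in that order, to fumarate and acetoacetate. All 4 had negative values from their brightest probe sets, and none was called by limma (0 at an unadjusted p under 0.05). TAT, the transaminase that opens the route and a marker of the mature liver, was dim on every array (4.42 to 4.77). HPD, which makes homogentisate, was dim too (4.58 to 5.03). The other probe set of TAT gave 0.11, and HPD stood at 0.12 without TGF-beta array 1. HGD, which opens the ring of homogentisate, was bright, at log2 intensities of 12.17 and 11.98 in untreated arrays and 11.86 and 11.82 after TGF-beta. Its log2 fold change was -0.24 ± 0.11 (adjusted p = 0.333), and its 2 dimmer probe sets gave -0.45 ± 0.12 and -0.22 ± 0.15. For the -0.45 the unadjusted p was 0.00666 and the adjusted p 0.121, in limma's fit over all probe sets. FAH, the last enzyme of the route, stood at -0.16 ± 0.12.

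Glutamate and glutamine take up and release ammonia. The 5 measured enzymes of this group had positive values from their brightest probe sets, but the other probe sets of GLUL were negative. Of the 5 enzymes, 0 were called by limma and 1 had an unadjusted p under 0.05. That was GOT1, the cytosolic aspartate transaminase, at log2 intensities of 10.95 and 10.89 in untreated arrays and 11.24 and 11.19 after TGF-beta. Both treated arrays of GOT1 were above both untreated ones, and its log2 fold change was 0.29 ± 0.10 (95% interval from 0.05 to 0.54; adjusted p = 0.203). GOT2, its mitochondrial counterpart, was at 10.28 and 10.35 against 10.41 on both treated arrays, a log2 fold change of 0.10 ± 0.10 (adjusted p = 0.694).

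GLUD1, glutamate dehydrogenase, had a mean log2 intensity of 12.94 and stood at 0.12 ± 0.12. GLUL, which makes glutamine and is used as a marker of the hepatocytes around the central vein, was at 11.51 and 11.63 against 11.69 and 11.47, so the groups overlapped. Its log2 fold change was 0.01 ± 0.12 from the brightest probe set, while the 2 others gave -0.19 ± 0.11 and -0.25 ± 0.11, so no direction is given for GLUL. GPT, the alanine transaminase, was dim, at 5.01 and 4.73 against 5.07 and 5.05, with a log2 fold change of 0.19 ± 0.13 (adjusted p = 0.488).

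Glycine is split in mitochondria by a complex of which GLDC, AMT and GCSH encode the P, T and H proteins. GLDC stood at 0.01 ± 0.16, AMT at -0.06 ± 0.12 and GCSH at -0.16 ± 0.11 (SE), and limma called 0 of the group's 4 genes (0 at an unadjusted p under 0.05). GCSH was at log2 intensities of 11.42 and 11.36 against 11.20 and 11.27, with its treated arrays below its untreated ones, and its dimmer probe set gave -0.29 ± 0.11 (unadjusted p = 0.0280 in limma). GLDC differed more within groups than between them, at 9.70 and 10.09 against 9.77 and 10.04. AGXT, which detoxifies glyoxylate in liver peroxisomes, was dim and stood at 0.04. GCH1, the first enzyme in the synthesis of tetrahydrobiopterin, the cofactor of aromatic amino acid hydroxylases, was at 9.25 and 9.55 against 9.41 and 9.29. Its groups overlapped and its log2 fold change was -0.05 ± 0.13.

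**Figure D4:**
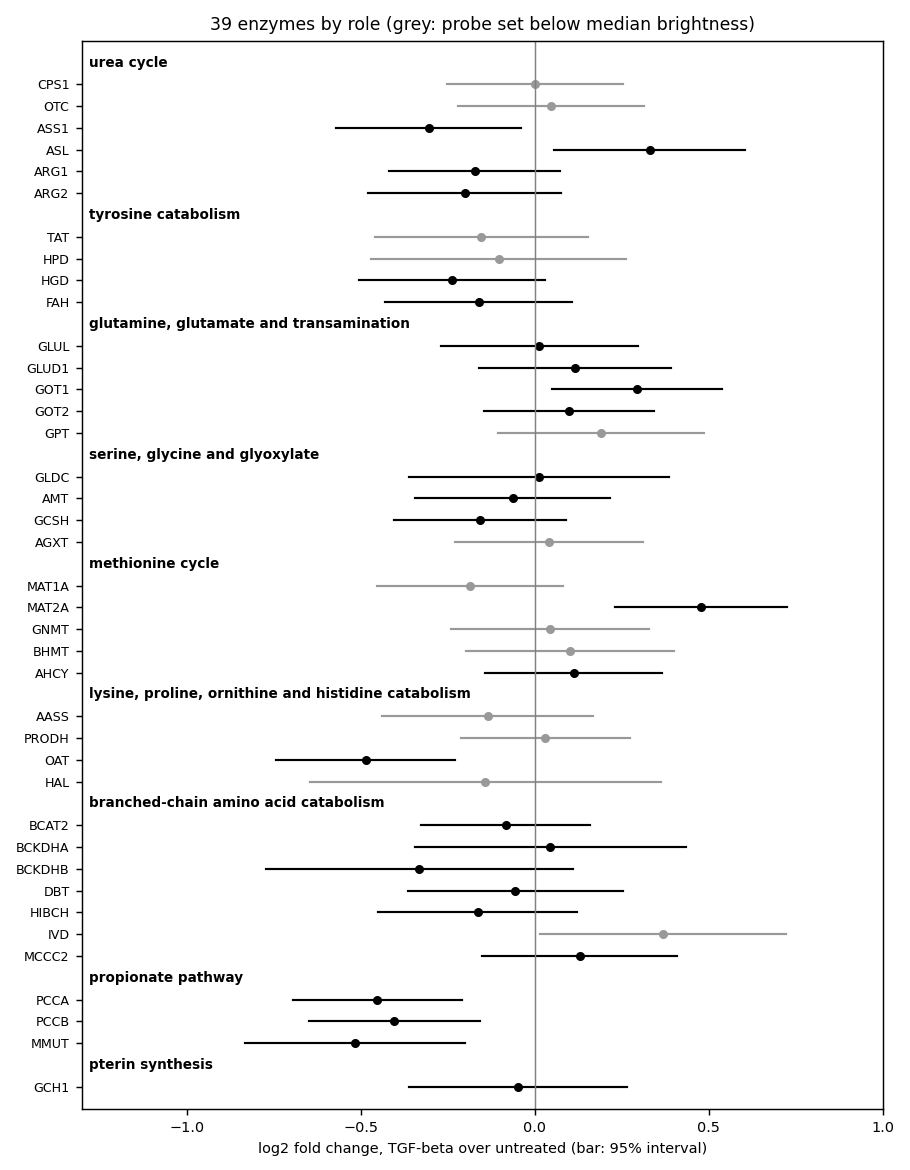
Log2 fold change after TGF-beta (horizontal) of each of the 39 enzymes, grouped by role, with a bar for limma's 95% interval before adjustment. Grey marks the 13 enzymes with a probe set below the median brightness. The intervals of PCCA, PCCB, MMUT, OAT and ASS1 lie below 0, those of MAT2A, ASL, GOT1 and IVD above it, and the other 30 cross it.

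Several probe sets were read for 19 of the 39 enzymes, and for 12 of them every probe set gave the same sign. None of the 69 probe sets was called in a fit over all probe sets that name a single gene. The signs differed for CPS1, TAT, GLUL, AGXT, IVD, MCCC2 and PCCA. Probe sets used for GLUD1, GPT, DBT and HIBCH carry the suffix _x_at, which marks probes shared with similar transcripts. Those of MAT2A, PCCB and MMUT, among others, carry _s_at, a suffix for probes that match several transcripts.

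The wider pathway was read from a list of 62 other enzymes and carriers, of which 44 were measured. This list too was chosen with earlier results of these data known. Limma called 1 of the 44 lower and 0 higher, and 13 (29.5%, beside 18.0% of all genes) had an unadjusted p under 0.05, of which 11 were lower and 2 higher, beside 8.60% and 9.35% of all genes. Of the 44 genes, 33 were above the median brightness, and 11 of these 33 (33.3%) had such a p, beside 28.2% of all genes of that brightness. Among these 33, 10 were lower and 1 higher, beside 821 lower and 897 higher of the 6082 genes of that brightness. The list's median was -0.11, beside -0.01 for all genes. The called gene was CTH, which makes cysteine from cystathionine, at log2 intensities of 8.19 and 8.21 in untreated arrays and 7.13 and 7.37 after TGF-beta. CTH fell by 0.95 ± 0.12 (SE) on the log2 scale, or 1.93-fold, with an adjusted p of 0.0256. Its value was -0.83 without TGF-beta array 1 (adjusted p = 0.248) and -1.06 without TGF-beta array 2 (adjusted p = 0.164), in fits that called no gene at all. Its dimmer probe set was called too, at -1.18 ± 0.13 (adjusted p = 0.0204 in the fit over all probe sets). CBS, the step before it, was at 8.01 and 8.12 against 7.52 and 7.34 and stood at -0.63 ± 0.12, with an adjusted p of 0.0549. KYNU, the kynureninase of tryptophan breakdown, was at 8.56 and 8.36 against 7.85 and 7.58 and stood at -0.75 ± 0.13, with an adjusted p of 0.0521. DDC, the aromatic amino acid decarboxylase, named after its value was seen, stood at -0.79 ± 0.15 (adjusted p = 0.0558). On the higher side, SPR, the last enzyme of tetrahydrobiopterin synthesis, stood at 0.52 ± 0.11 (adjusted p = 0.0597) and HAAO, a later tryptophan enzyme, at 0.41 ± 0.12 (adjusted p = 0.127). In this list the groups' arrays did not overlap for 28 of 44 genes (63.6%), of which 20 were lower, beside 49.1% of all genes. Among the 33 brighter genes of the list it was 24 (72.7%), beside 60.3%.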

How the data were processed

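RNA of 4 Huh-7 samples, 2 untreated and 2 treated with TGF-beta, was measured on Affymetrix arrays. The authors deposited 1 linear intensity per probe set and array. Per the submitters' processing notes the affy package was used, with settings that no label states. Quartiles were nearly equal between arrays (medians 50.1 to 51.0), so the intensities were taken as normalized, with no further scaling, and converted to log2 with an offset of 0. Precision is limited by the number of arrays.

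Gene names came from GEO's platform annotation, with symbols updated by Entrez number through RefSeq (GRCh38.p14). Of 22215 probe sets, 19724 name 1 gene, 568 several and 1923 none, and 19707 found a current symbol. The brightest probe set stood for each gene.

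The groups were compared with limma 3.58.1 in R 4.3.3 (lmFit and eBayes over all genes, Benjamini-Hochberg adjustment), with 7.41 degrees of freedom (5.41 from the prior). On simulated data with 12165 genes, 20 runs and 200 changed genes per run, 11% of changes of 0.5 on the log2 scale, 90.4% of 1 and 98.5% of 1.5 were recovered, and 5.60% of calls were false. The simulated variances were drawn from limma's prior and did not depend on intensity, so these shares do not describe bright or dim genes separately. Figures used Python 3.11.15 and matplotlib 3.10.9.

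The 39 enzymes and the wider pathway list were chosen with earlier results of these data known. Values per array are given for the 6 smallest p in each direction, the smallest p of each role, the isozyme pairs and the urea cycle. Of the wider list, calls and the 3 smallest p in each direction are named, and SLC25A13, SLC25A15, ACADSB, ALDH6A1, BCAT1, AUH, DLD and DDC, like APOA1, TTR, SERPINA1 and CD14 among the markers, were named after their values were seen. Alternatives were quantile normalization, median centring, the mean of all probe sets, a brightness filter, an intensity trend, a replicate block and leaving out each array.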

Additional observations from a re-analysis of the deposited data

How the results depend on the processing

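The arrays number 2 per group, and on simulated data, with noise that did not depend on intensity, 11% of changes of 0.5 on the log2 scale were recovered. No group has the 4 samples that a check for outlying arrays needs. The count of called genes was 149, and it became 63 under quantile normalization, 92 among brighter genes, 616 with an intensity trend, 1229 with the replicate block, and 0 to 523 when 1 array was left out. The count among the 39 enzymes was 0, and it became 4 with an intensity trend, 5 with the replicate block and 0 to 2 when 1 array was left out. In the wider list 1 call became 3 under centring, 3 with the mean of all probe sets, 8 with the trend, 11 with the replicate block and 0 to 7 without 1 array. That list's median was -0.11, -0.15 among brighter genes and -0.174 to -0.083 without 1 array. The median of the 39 enzymes kept its sign, at -0.10 to -0.01. Array numbers 1 and 2 are shared by the groups, but deviations of same-numbered arrays correlated at only 0.0097, so the numbers are not read as pairing the samples. The 5 enzymes called with the replicate block were MAT2A (0.48), OAT (-0.49), PCCA (-0.45), PCCB (-0.40) and MMUT (-0.52). The cause of these differences in counts was not tested.

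Under centring CPS1 became -0.019, GLUL -0.0063 and GLDC -0.0066. With the mean of all probe sets CPS1 became -0.050, GLUL -0.14, AGXT -0.047 and MCCC2 -0.13. Dimmer probe sets gave -0.31 for AGXT, -0.10 for CPS1, -0.19 and -0.25 for GLUL, -0.042 and -0.10 for IVD, -0.38 for MCCC2, 0.0020 for PCCA and 0.11 for TAT. Without 1 array the ranges that crossed 0 were -0.060 to 0.060 for CPS1, -0.041 to 0.13 for OTC, -0.33 to 0.12 for HPD, -0.092 to 0.12 for GLUL, -0.18 to 0.20 for GLDC, -0.17 to 0.044 for AMT, -0.061 to 0.14 for AGXT, -0.074 to 0.16 for GNMT, -0.039 to 0.24 for BHMT, -0.28 to 0.0048 for AASS, -0.44 to 0.15 for HAL, -0.15 to 0.24 for BCKDHA, -0.17 to 0.060 for DBT and -0.20 to 0.11 for GCH1. The genes followed were the 39 enzymes and genes of the wider list picked by their values, 50 in all. Of these 50, 32 had no reversed value, among them MAT2A, OAT, PCCB and MMUT. Dimmer probe sets were counted for the enzymes only. ALDH6A1 of the wider list (-0.62) thus had no reversed value, although a dimmer probe set gave 0.16.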
